A study of Mus musculus with 10 samples.

Results

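Klhl14 and Vwc2l, 2 of the genes with the largest ventral excess in ribosome-bound RNA from hippocampal mossy-cell-enriched populations, were followed library by library. They were taken by gene symbol from 54838 Ensembl gene identifiers in the count files, of which 16806 passed the expression filter (CPM, read counts scaled to the library total, above 1 in at least 2 libraries), both genes among them. They were chosen by their measured CPM in ventral over dorsal libraries, so that difference is described here without a test, and tests are given only for other genes. The samples were translating ribosome affinity purification (TRAP) libraries: ribosomes carrying an EGFP-tagged L10a subunit were precipitated from tissue lysate and the RNA bound to them was sequenced. All 10 libraries came from C57BL/6 mice of the genotype Drd2-Cre;Eef1a1LSL.eGFPL10a/+ at about 10 weeks of age, with no treatment named, and differed only in the part of the hippocampus that was dissected: 5 libraries were dorsal and 5 were ventral, each from a pool of 5 mice out of 25 whose hippocampi were divided. The Drd2-Cre driver marks mossy cells of the dentate hilus but also sparse interneurons and neurons of the ventral subiculum, so that a library holds RNA of an enriched population and not of 1 cell type. The ventral subiculum was dissected away before the tissue was pooled, to keep its share small. The study names a minor inclusion of subicular tissue as a possibility that remains.

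Klhl14 encodes a kelch-like protein. Proteins of this family use a BTB domain to bind the scaffold CUL3 and kelch repeats to hold a substrate, and so serve as exchangeable adaptors of a ubiquitin ligase. Klhl14 is also known as printor, a binding partner of torsinA. Vwc2l (von Willebrand factor C domain containing protein 2-like) and its paralog Vwc2 (brorin) encode small secreted proteins with the cysteine-rich domains of chordin, the antagonist that keeps bone morphogenetic proteins (BMPs) from their receptors, and both proteins have been found in AMPA receptor complexes of the brain.

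On the GRCm38 annotation Vwc2l (ENSMUSG00000045648) lay on the plus strand of chromosome 1 from 70725715 to 70885397 with 7689 exonic bases. Of the 2 ventral genes and the family members used for comparison, Vwc2 on chromosome 11 (11114223 to 11268931, plus strand) and Klhl29 on chromosome 12 (5077472 to 5375682, minus strand), 3 of 4 had a promoter in the RefSeq table for GRCm38.p6. The windows of the paralogs Vwc2l and Vwc2 are shown because these genes differed between dorsal and ventral libraries to unlike degrees. Each holds the 250 bases before the RefSeq start site on the plus strand, chr1:70725465-70725714 for Vwc2l and chr11:11113766-11114015 for Vwc2. The Vwc2l window ends at the base before the gene start given above, whereas the Vwc2 window ends further upstream of the start given for Vwc2, 11114223. Capitals mark matches to the motifs named in the next paragraph.
Vwc2l: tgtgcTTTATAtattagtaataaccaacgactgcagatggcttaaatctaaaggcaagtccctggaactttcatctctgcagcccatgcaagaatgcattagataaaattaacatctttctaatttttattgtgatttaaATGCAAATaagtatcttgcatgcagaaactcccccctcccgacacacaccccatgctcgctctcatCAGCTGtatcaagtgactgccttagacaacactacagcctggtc
Vwc2: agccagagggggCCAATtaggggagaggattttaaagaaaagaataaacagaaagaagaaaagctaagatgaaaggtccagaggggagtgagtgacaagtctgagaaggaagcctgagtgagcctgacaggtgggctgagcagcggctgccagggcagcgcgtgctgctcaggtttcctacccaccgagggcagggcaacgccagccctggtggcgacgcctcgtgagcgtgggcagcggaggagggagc

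The upstream window of Vwc2l had a GC content of 40.8% and 3 CpG dinucleotides, that of Vwc2 had 58.8% and 10, and that of Klhl29 had 74.8% and 27. Across 32851 windows of the same length the median GC content was 52.4%, and 13.3% of windows had a lower GC content than Vwc2l. Of 7 motifs searched on both strands, Vwc2l held 1 match to TATAAA, read on the minus strand and present in 12.4% of all windows. It held 1 match to CAGCTG, an E-box present in 13% of windows, and 1 to ATGCAAAT, the octamer, present in 1.6%. Vwc2 held 1 match to CCAAT, a motif in 33.8% of windows, and Klhl29 held 1 match to CCAAT and 2 to GGGCGG, which was in 32.7% of windows. TGACGTCA (1.55% of windows) and AGGTCA (14.0%) were in none of the 3 windows. In the windows printed no match overlapped another, and the motifs were chosen with the sequences in view, so the matches describe the letters only.

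Klhl14 was close to the limit of detection in dorsal libraries and moderately expressed in ventral ones. Dorsal libraries 1 to 5 held 21, 29, 6, 15 and 8 read pairs of Klhl14, or 1.98, 1.88, 0.409, 0.901 and 0.629 CPM. Ventral libraries 1 to 5 held 201, 98, 153, 141 and 200 read pairs, or 11.2, 8.63, 12.9, 8.92 and 9.44 CPM. The groups did not overlap: the lowest ventral library, 2, stood above the highest dorsal library, 1. Counting error alone gave a 95% exact Poisson interval of 0.150 to 0.890 CPM for dorsal library 3 and of 7.0 to 10.5 CPM for ventral library 2. The means were 1.16 ± 0.725 CPM (SD, n = 5) dorsal and 10.2 ± 1.80 CPM (SD, n = 5) ventral, an 8.81-fold ratio. In the edgeR fit over all tested genes the log2 fold change, ventral over dorsal, was 3.16 (SE 0.34).

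Vwc2l was expressed at a low level in dorsal libraries and at a clear level in all ventral ones. Dorsal libraries 1 to 5 held 34, 75, 108, 102 and 62 read pairs of Vwc2l, or 3.20, 4.87, 7.36, 6.13 and 4.87 CPM. Ventral libraries 1 to 5 held 1315, 456, 268, 861 and 751 read pairs, or 73.0, 40.1, 22.6, 54.5 and 35.5 CPM. The groups did not overlap here either, with ventral library 3 the lowest of its group and dorsal library 3 the highest of its own. The means were 5.29 ± 1.56 CPM (SD, n = 5) dorsal and 45.1 ± 19.3 CPM (SD, n = 5) ventral, an 8.54-fold ratio and a log2 fold change of 3.08 (SE 0.33).

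**Figure D1:**
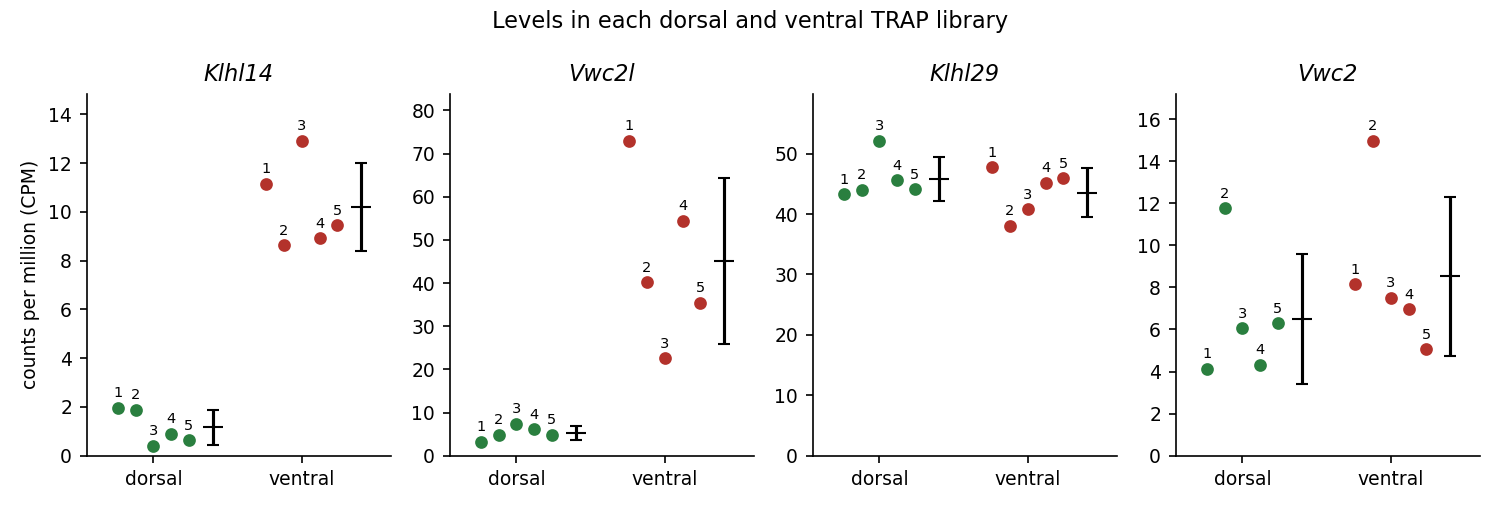
Level of each gene in CPM (y axis, linear from 0) in the 5 dorsal (green) and 5 ventral (red) libraries, with replicate numbers above the points and the group mean ± SD in black. Every ventral library stands above every dorsal library for Klhl14 (8.63 to 12.9 against 0.409 to 1.98 CPM) and Vwc2l (22.6 to 73.0 against 3.20 to 7.36 CPM), while the groups overlap for Klhl29 and Vwc2.

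Of all tested genes 9.85% were called ventral (Benjamini-Hochberg adjusted p below 0.05 and a log2 ratio of mean CPM plus 1 beyond 0.58) and 25.5% were called in either direction, and 8.36% had every ventral library above every dorsal one. For Klhl14 and Vwc2l these shares are background only, since that contrast chose the 2 genes. Ranked by the log2 ratio of mean CPM plus 1 in the ventral direction, Vwc2l stood at position 2 of 16806 and Klhl14 at position 13. Position 1 was held by Calb2, which encodes calretinin, the marker of ventral mossy cells, at 65.2 ± 9.32 CPM dorsal and 616 ± 94.6 CPM ventral (SD, n = 5 each). The dorsal mean was 10.6% of the ventral mean for Calb2, 11.4% for Klhl14 and 11.7% for Vwc2l. By the fitted log2 fold change, which does not damp low genes, Vwc2l and Klhl14 stood at positions 191 and 182. Among all tested genes, Klhl14 stood above 13.5% of genes by dorsal level and above 48.4% by ventral level, and Vwc2l above 37.5% and 74.4%. In bulk TRAP RNA, fewer cells of a type and less RNA per cell cannot be told apart.

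The 2 genes varied in unlike ways within each group. Ventral levels of Klhl14 were tight, with a highest to lowest ratio of 1.5 and a coefficient of variation of 17.6%, whereas those of Vwc2l spread over a ratio of 3.22 with a coefficient of variation of 42.7%. Dorsal levels showed the opposite order, at 62.5% for Klhl14 and 29.5% for Vwc2l, although dorsal Klhl14 rests on as few as 6 read pairs. Ventral library 3 had the highest Klhl14 of its group, 126.5% of the ventral mean, and the lowest Vwc2l, 50.1% of the ventral mean. Dorsal library 3 had the lowest Klhl14, 35.3% of the dorsal mean, and the highest Vwc2l, 139%. Dorsal library 1 had the highest Klhl14, 170% of the dorsal mean, and the lowest Vwc2l, 60.5%. The 2 genes also lay on opposite sides of their group means in dorsal libraries 2 and 4 and ventral library 4. Klhl14 and Vwc2l lay on the same side in ventral libraries 1 (109% and 162%), 2 (84.5% and 89.0%) and 5 (92.5% and 78.6%). In dorsal library 5 both were below the dorsal mean (54.2% and 92.2%). Calb2 in the same libraries stayed between 76.2% and 118% of its group means. With 5 libraries a group, no correlation between the genes was computed. When single libraries were dropped, the fitted value stayed within 2.93 to 3.46 for Klhl14 and within 2.83 to 3.23 for Vwc2l.

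**Figure D2:**
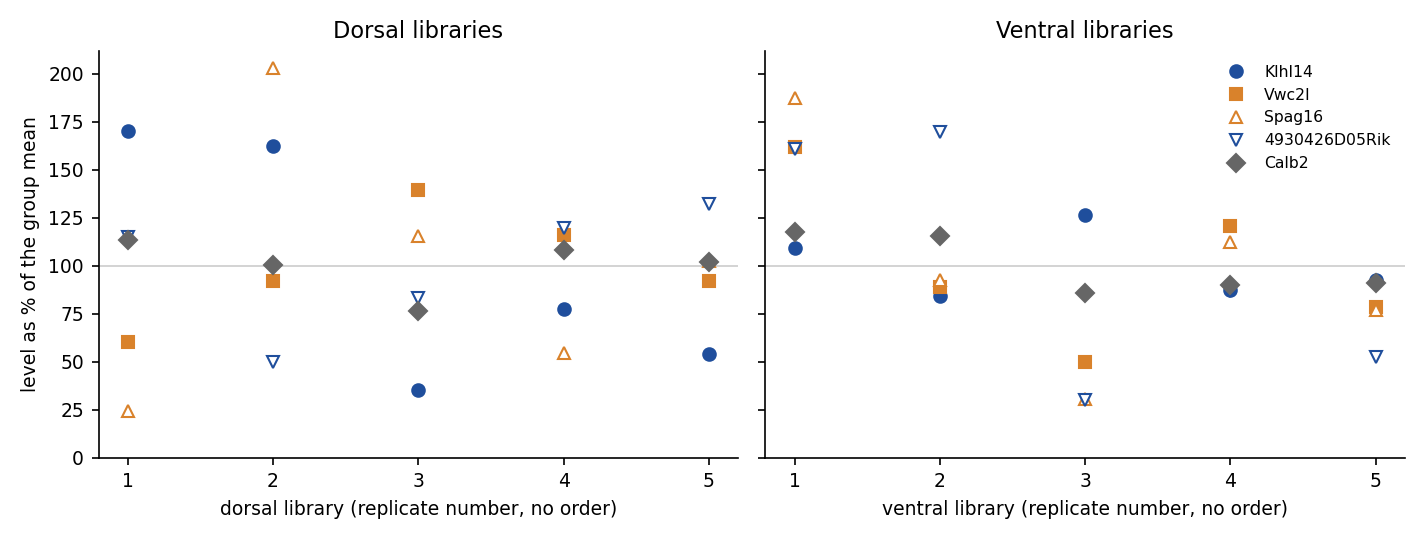
Level of 5 genes in each library as a percentage of the mean of its own group (y axis, linear from 0), for dorsal libraries on the left and ventral libraries on the right. Klhl14 (filled circles) and Vwc2l (filled squares) lie on opposite sides of 100% in dorsal libraries 1 to 4 and ventral libraries 3 and 4. In the others they lie on the same side. In the ventral libraries Spag16 (open triangles) follows Vwc2l in order.

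Vwc2 and Klhl29 were not called. Vwc2 was at 4.14, 11.8, 6.07, 4.32 and 6.29 CPM in dorsal libraries 1 to 5 and at 8.16, 15.0, 7.51, 6.96 and 5.05 CPM in ventral ones. The groups overlapped, with library 2 the highest in both. The log2 fold change was 0.29 (SE 0.34, edgeR adjusted p = 0.544). Klhl29 ranged from 43.3 to 52.1 CPM in dorsal and from 38 to 47.8 CPM in ventral libraries, with a log2 fold change of -0.068 (SE 0.12, edgeR adjusted p = 0.683). Across the alternative settings tried, the adjusted p lay between 0.144 and 0.934 for Vwc2 and between 0.512 and 0.905 for Klhl29. A p above the threshold does not show equal levels, and the standard error of Vwc2 is as wide as that of Vwc2l.

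Levels of different genes were compared as CPM per kilobase of exon. In dorsal libraries Vwc2l averaged 0.687 ± 0.203 and Vwc2 1.08 ± 0.512 CPM per kilobase (SD, n = 5 each), and Vwc2l was above Vwc2 in 1 of 5 libraries. In ventral libraries Vwc2l averaged 5.87 ± 2.51 and Vwc2 1.41 ± 0.626 CPM per kilobase, and Vwc2l was above Vwc2 in 5 of 5. The level of Vwc2l relative to Vwc2 ran from 0.326 to 1.11 in dorsal and from 2.11 to 7.03 in ventral libraries. Klhl29 was above Klhl14 in all 10 libraries. It stood 13.8 to 80.1 times higher in dorsal libraries and 1.98 to 3.18 times higher in ventral ones. Vwc2l was also above Klhl14 on average on this scale, at 0.687 against 0.262 CPM per kilobase dorsal and 5.87 against 2.31 ventral.

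**Figure D3:**
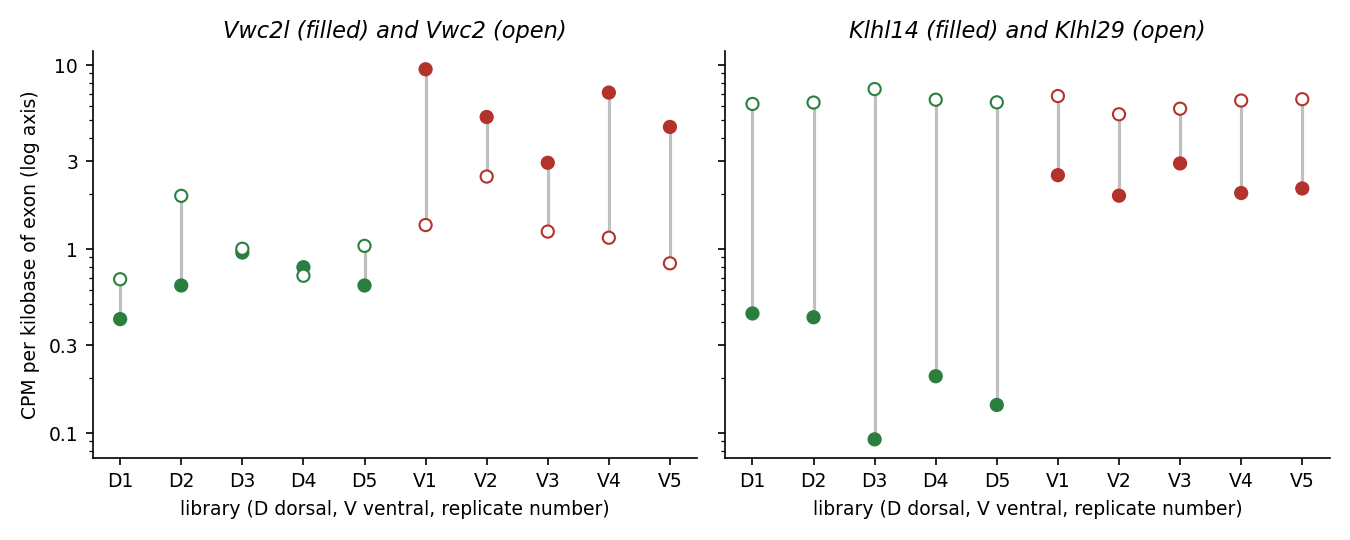
CPM per kilobase of exon (log axis) of Vwc2l with Vwc2 and of Klhl14 with Klhl29 in each library (green dorsal, red ventral), with a grey line joining the pair. The open points of Vwc2 lie above Vwc2l in 4 of 5 dorsal libraries and below it in 5 of 5 ventral ones, and Klhl29 lies above Klhl14 in all 10.

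Klhl14 (ENSMUSG00000042514) lies on the minus strand of chromosome 18 from 21550377 to 21654718 with 4425 exonic bases. Its start overlaps an antisense RNA, 4930426D05Rik, which shares 13.8% of the exonic bases of Klhl14. The TruSeq v2 kit does not mark strand, so reads in that stretch cannot be assigned to either gene. 4930426D05Rik held 5 to 13 read pairs in dorsal and 7 to 57 in ventral libraries. With at most 0.864 CPM in dorsal libraries, 4930426D05Rik passed the filter only through ventral ones, so a ventral call is no support for its ventral excess. Its log2 fold change was 1.58 (SE 0.52, edgeR adjusted p = 0.0276), a ventral call that ended in 6 of the 21 alternatives in which it was tested. Those were the edgeR 3 dispersions (adjusted p = 0.0587) and leaving out dorsal library 2 (0.0655), dorsal library 3 (0.0632), dorsal library 4 (0.0526), ventral library 1 (0.0777) or ventral library 2 (0.0515). In ventral library 3, which had the most Klhl14 of its group, 4930426D05Rik was the lowest of its group, at 30.0% of the ventral mean.

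Spag16, which encodes a protein of the ciliary axoneme, ends 582 bases before the start of Vwc2l on the same strand, and its last base lies 332 bases before the promoter window printed above. It was at 0.188, 1.56, 0.886, 0.420 and 0.786 CPM in dorsal libraries 1 to 5 and at 6.77, 3.35, 1.10, 4.05 and 2.79 CPM in ventral ones. Ventral library 3 fell below dorsal library 2, so the groups overlapped, and the other ventral libraries stood above all dorsal ones. Dorsal library 2 was the only dorsal one over 1 CPM, so Spag16 passed the filter only through ventral libraries. A ventral call of Spag16 is therefore no support for a ventral excess around Vwc2l. The log2 fold change was 2.23 (SE 0.53, edgeR adjusted p = 0.00554), a ventral call that held in the alternatives tried, with adjusted p from 5.0e-04 to 0.0230. The order of the ventral libraries from highest to lowest was 1, 4, 2, 5 and 3 for Spag16 and for Vwc2l alike, while the dorsal orders differed. Whether reads run from one gene into the other was not tested, since the files hold counts per gene only.

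None of the other tested protein-coding genes within 1 Mb was called ventral. With Spag16 included, ventral calls were 1 of 4 tested around Vwc2l and 0 of 8 around Klhl14, beside 9.85% of all tested genes. Around Vwc2l, 4 of 5 were tested: besides Spag16, the log2 fold change was 0.43 (SE 0.22) for Atic, -0.25 (SE 0.34) for the fibronectin gene Fn1 and -0.67 (SE 0.60) for Bard1, with edgeR adjusted p of 0.143, 0.596 and 0.406. Around Klhl14, 8 of 10 were tested and all 8 had a negative log2 fold change in the main fit, from -2.52 to -0.094. With GC and length offsets Rnf138 (0.56) and Trappc8 (0.14) were positive. Of the 8 genes, 2 were called dorsal, beside 15.7% of all tested genes. Ccdc178, the next gene on the side of the start of Klhl14, was at 1.09 CPM dorsal and 0.202 CPM ventral (log2 fold change -2.52, SE 0.88, edgeR adjusted p = 0.0330). With at most 0.528 CPM in ventral libraries, Ccdc178 passed the filter only through dorsal ones. Its call is therefore no support for a dorsal excess around Klhl14. Dsg2, a desmosomal cadherin, was at 2.14 and 0.861 CPM (log2 fold change -1.36, SE 0.50, edgeR adjusted p = 0.0446). The calls were lost in 12 of 21 alternatives that tested Ccdc178 and in 13 of 22 for Dsg2, DESeq2 included (adjusted p = 0.141 and 0.0828). Leaving out dorsal library 3, 4 or 5 or ventral library 1, 3, 4 or 5 ended each of them, with adjusted p up to 0.115 for Ccdc178 and up to 0.117 for Dsg2.

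**Figure D4:**
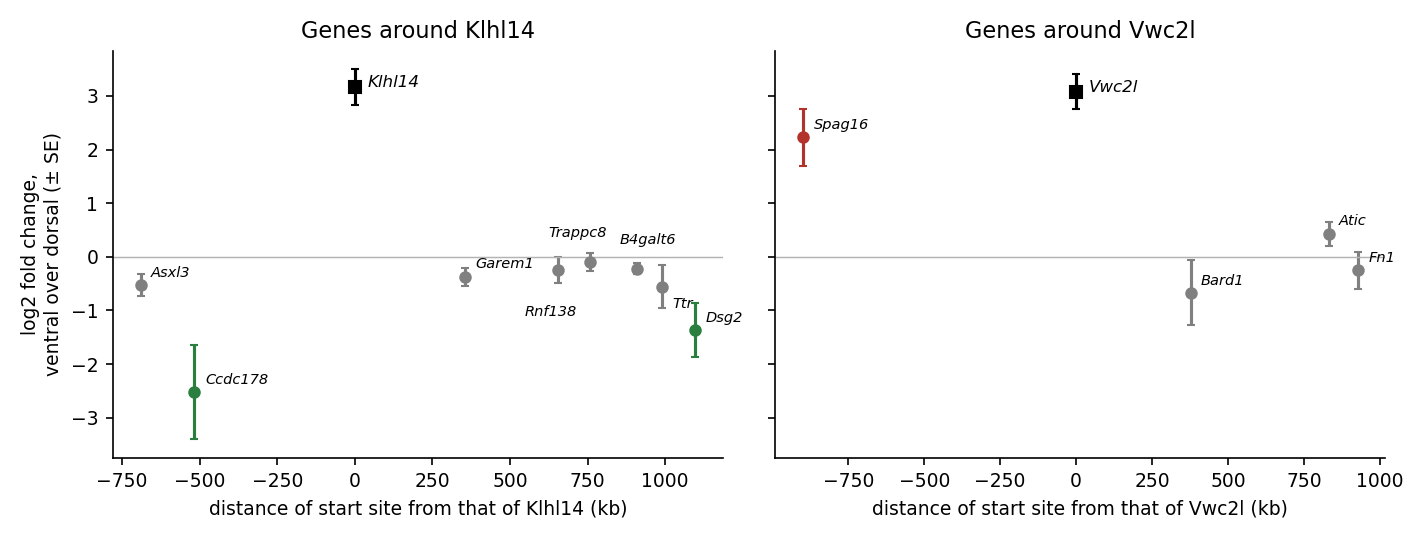
Log2 fold change ventral over dorsal (y axis, ± SE) of tested protein-coding genes within 1 Mb of Klhl14 (left) and Vwc2l (right) against the distance of their start sites in kilobases, positive in the direction of transcription (red called ventral, green called dorsal, grey not called, black squares Klhl14 and Vwc2l). Spag16 at 2.23 is the only neighbour called ventral in the fit, and all 8 tested neighbours of Klhl14 lie below 0. Rnf138 and Trappc8 were above 0 with GC and length offsets.

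Of 35 other kelch-like genes 28 were tested, and 4 were called ventral and 1 dorsal, 14.3% and 3.57% of the list against 9.85% and 15.7% of all tested genes. The median log2 fold change was 0.17, beside 0.0044 over all tested genes. Klhl1, an actin-binding member found mainly in neurons, rose from 1.32 ± 0.808 CPM dorsal to 4.94 ± 1.69 CPM ventral (SD, n = 5 each), with a log2 fold change of 1.94 (SE 0.43, edgeR adjusted p = 0.00397). It was at 2.02 CPM in ventral library 2 and at 2.39 CPM in dorsal library 3, so the groups overlapped. Klhl42, an adaptor for the microtubule-severing enzyme katanin, followed at 0.87 (SE 0.25, edgeR adjusted p = 0.0160). Klhl33, at 1.12 (SE 0.40, edgeR adjusted p = 0.0437), lost its call in 10 of 22 alternatives, among them without dorsal library 1, 3, 4 or 5 or ventral library 3, 4 or 5 (adjusted p from 0.0622 to 0.10). Klhl13, a mitotic adaptor, at 0.61 (SE 0.16, edgeR adjusted p = 0.0129), lost its call in 9, among them without dorsal library 3, 4 or 5 or ventral library 1 or 3, where its fitted log2 fold change was 0.50 to 0.60. The fold rule reads the log2 ratio of mean CPM plus 1, so a fitted value just above 0.58 can miss it. The count of ventral calls was 2 without dorsal library 3, 4 or 5 or without ventral library 3. Klhl15, an adaptor for a regulatory subunit of the phosphatase PP2A, was the dorsal call at -0.85 (SE 0.18, edgeR adjusted p = 0.00318), and was not called once GC content and length were offset (-0.32, adjusted p = 0.181).

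Among 13 tested BTB-kelch genes outside the Klhl symbols, 3 were called ventral and 1 dorsal (23.1% and 7.69%, beside 9.85% and 15.7% of all tested genes), with a median of -0.098, the same with Kbtbd13 at its lower bound. Kbtbd13, 1 of the 3, entered the test only through ventral libraries, so the count is no support for a ventral excess of the list. Kbtbd7, an adaptor that acts with Kbtbd6 on the Rac activator TIAM1, rose by 0.65 on the log2 scale (SE 0.14, edgeR adjusted p = 0.00351). Kbtbd13, known from skeletal muscle, had 0 read pairs in every dorsal library, where 3 read pairs would be 0.180 to 0.282 CPM, and 0.763 ± 0.773 CPM in ventral ones. Without ventral library 3 the list had 0 ventral calls: the log2 fold change was 0.54 for Kbtbd7, short of the fold rule, and Kbtbd13, over 1 CPM in ventral libraries 3 and 5 alone, no longer passed the filter, nor did it without ventral library 5. Kbtbd13 also lost its call without dorsal library 3, 4 or 5 or ventral library 4 (adjusted p from 0.0523 to 0.0649). Without ventral library 1 the count was 5. Kbtbd11 was the dorsal call, at 327 ± 32.3 CPM dorsal and 197 ± 22.2 CPM ventral (log2 fold change -0.73, SE 0.10, edgeR adjusted p = 2.79e-04), and shares 24.8% of its exonic bases with the overlapping Gm37844. Keap1, the oxidative stress sensor, had an edgeR adjusted p of 0.0287 at 0.62 but missed the fold rule, which it passed without dorsal library 3 or 5 or ventral library 1 or 2 (0.65 to 0.72), and Enc1, at 503 CPM dorsal and 470 CPM ventral, was not called (adjusted p = 0.389).

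Of 23 genes of the CUL3 ligase core and the neddylation cycle, all tested, 2 were called ventral and 0 dorsal by edgeR, and 9 and 0 at an unadjusted p below 0.05, with 2 and 0 by DESeq2. The ventral share of 8.70% lay near the 9.85% of all tested genes, and the dorsal share of 0% stands beside 15.7%. The median log2 fold change of the list was 0.19, beside 0.0044 over all tested genes, with 19 genes positive and 4 negative. At an unadjusted p below 0.05 the shares of all tested genes were 20.8% ventral and 24% dorsal, and by DESeq2 calls 9.19% and 14.8%. The called genes were Uba3, the catalytic subunit of the NEDD8-activating enzyme (0.63, SE 0.15, edgeR adjusted p = 0.00636), and Cops7a, a subunit of the COP9 signalosome that removes NEDD8 (0.64, SE 0.11, edgeR adjusted p = 0.00117). Uba3 was not called without ventral library 3 (0.49), nor Cops7a without ventral library 2 (0.57). The scaffold Cul3 itself was at 462 ± 55.4 CPM dorsal and 521 ± 93.9 CPM ventral (log2 fold change 0.17, SE 0.13, edgeR adjusted p = 0.303), and its RING partner Rbx1 at 0.30 (SE 0.13, edgeR adjusted p = 0.0918). The modifier Nedd8 had a log2 fold change of 0.52 (SE 0.11, edgeR adjusted p = 0.00340), which missed the fold rule. Of 6 tested torsins and partners, 0 were called in either direction by edgeR or DESeq2, with 0 ventral and 3 dorsal at an unadjusted p below 0.05. The median of these 6 was -0.25, with 1 positive and 5 negative. Tor1a, the gene of torsinA, was at 14.1 ± 4.03 CPM dorsal and 13.6 ± 1.04 CPM ventral (log2 fold change -0.056, SE 0.20, edgeR adjusted p = 0.855), and its cofactor Tor1aip1 at -0.55 (SE 0.19, edgeR adjusted p = 0.0406), short of the fold rule, which it passed without dorsal library 2 or ventral library 3 or 5 (-0.60 to -0.65).

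**Figure D5:**
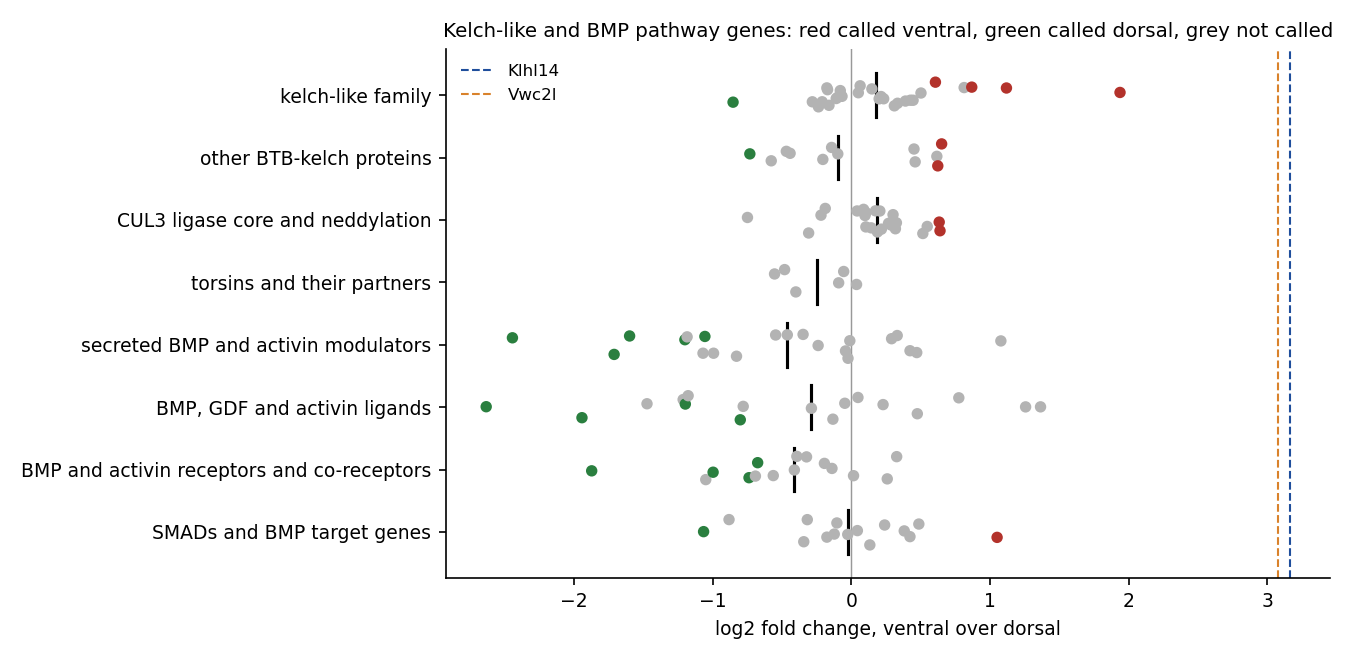
Log2 fold change ventral over dorsal (x axis) of the tested genes in each list, 1 point a gene (red called ventral, green called dorsal, grey not called), with the list median as a black bar and dashed lines at Klhl14 and Vwc2l. The lists have medians between -0.46 and 0.19, the 2 dashed lines at 3.16 and 3.08 lie to the right of all plotted points, and Kbtbd13, with no dorsal read pair, is left out.

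Vwc2l is itself a member of the group of secreted BMP and activin modulators, whose other genes were not called in its direction in the main fit. Of 21 tested, 0 were called ventral and 5 dorsal by edgeR, 1 and 7 at an unadjusted p below 0.05, and 1 and 4 by DESeq2. The shares of 0% ventral and 23.8% dorsal stand beside 9.85% and 15.7% of all tested genes. At an unadjusted p below 0.05 all tested genes had 20.8% and 24%, and by DESeq2 calls 9.19% and 14.8%. The list's median log2 fold change was -0.46. Chrdl1, a chordin-like BMP antagonist secreted by astrocytes, was at 12.98, 4.42, 8.18, 11.1 and 9.04 CPM in dorsal libraries 1 to 5 and at 2.66, 2.82, 0.760, 0.949 and 1.13 CPM in ventral ones. These groups did not overlap, and the log2 fold change was -2.45 (SE 0.39, edgeR adjusted p = 5.93e-04). Grem1, the BMP antagonist gremlin, was at 5.49 ± 1.22 CPM dorsal and 1.78 ± 0.762 CPM ventral, with a log2 fold change of -1.71 (SE 0.32, edgeR adjusted p = 0.00172). Nbl1, the antagonist DAN, fell from 23.1 ± 7.57 CPM dorsal to 7.84 ± 1.66 CPM ventral (-1.60, SE 0.25, edgeR adjusted p = 4.98e-04). Fstl4, a follistatin-like protein, had a log2 fold change of -1.06 (SE 0.20, edgeR adjusted p = 0.00172). Bambi, a membrane pseudoreceptor and so not secreted, is 1 of the 5 dorsal calls of the list. It was at -1.20 (SE 0.43, edgeR adjusted p = 0.0448) and lost its call in 14 of 22 alternatives, among them without dorsal library 2, 3 or 5 or ventral library 1, 3, 4 or 5 (adjusted p from 0.0644 to 0.114). Chordin itself, Chrd, had a log2 fold change of 1.08 (SE 0.40, edgeR adjusted p = 0.0531) and was called ventral in 7 of 22 alternatives, among them without dorsal library 3 (adjusted p = 0.0385) and without ventral library 1 (0.0103). Nog, the antagonist noggin, was at -0.99 (SE 0.49, edgeR adjusted p = 0.127).

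Of 17 tested ligand genes, 0 were called ventral and 4 dorsal (23.5%, beside 9.85% ventral and 15.7% dorsal of all tested genes) by edgeR, with a median of -0.29. At an unadjusted p below 0.05 there were 1 and 7, where all tested genes had 20.8% and 24%. By DESeq2 there were 0 and 4, where all tested genes had 9.19% and 14.8%. Inhba and Inhbb encode the beta subunits of activins, and both were lower in ventral libraries. Inhba was at 28.5 ± 4.60 CPM dorsal and 12.8 ± 5.25 CPM ventral, with no overlap between groups (log2 fold change -1.20, SE 0.23, edgeR adjusted p = 0.00197). Inhbb was at 2.49 ± 1.07 and 0.442 ± 0.371 CPM (-2.64, SE 0.52, edgeR adjusted p = 0.00136). Among ventral libraries, Inhbb was over 1 CPM in library 2 alone (1.06 CPM), so it passed the filter only through dorsal ones. Its call is therefore no support for a dorsal excess of the list. Gdf11 was at -0.80 (SE 0.21, edgeR adjusted p = 0.0112). Bmp1, which despite its name is a protease that cleaves chordin and not a ligand, was at -1.94 (SE 0.43, edgeR adjusted p = 0.00421). It is 1 of the 17 tested genes and 1 of the 4 dorsal calls. Bmp4 was at 1.30 ± 0.489 CPM dorsal and 0.402 ± 0.396 CPM ventral (edgeR adjusted p = 0.0627), and was called dorsal without dorsal library 2 (0.0470) or ventral library 1 (0.0318). Bmp4 too passed the filter only through dorsal libraries, with at most 0.943 CPM in ventral ones.

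All 15 receptor and co-receptor genes with an identifier were tested, and 0 were called ventral and 4 dorsal (26.7%, beside 9.85% ventral and 15.7% dorsal of all tested genes) by edgeR. At an unadjusted p below 0.05 there were 0 and 7, where all tested genes had 20.8% and 24%. By DESeq2 there were 0 and 4, where all tested genes had 9.19% and 14.8%. The median log2 fold change was -0.41. Tgfbr2, the type II receptor for TGF-beta, fell from 8.72 ± 2.86 to 2.30 ± 1.06 CPM (-1.87, SE 0.36, edgeR adjusted p = 0.00179), and Tgfbr3, the co-receptor betaglycan, from 11.9 ± 1.09 to 5.63 ± 2.43 CPM (-1.0, SE 0.25, edgeR adjusted p = 0.00898). Bmpr1a, a type I BMP receptor, had a log2 fold change of -0.74 (SE 0.13, edgeR adjusted p = 8.62e-04), and Acvr2a, a type II receptor shared by activins and BMPs, had one of -0.68 (SE 0.13, edgeR adjusted p = 0.00221). Both of these missed the fold rule once GC content and length were offset, at -0.56 and -0.43, and the 4 named receptors had every dorsal library above every ventral one, as did 9.81% of all tested genes. Bmpr2 had an edgeR adjusted p of 0.0236 at -0.39, short of the fold rule, and Acvr1 was at -0.32 (adjusted p = 0.229).

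Of 15 tested SMADs and BMP target genes 1 was called in each direction (6.67%, beside 9.85% ventral and 15.7% dorsal of all tested genes), with a median of -0.027. Smad9, a BMP-responsive SMAD, rose from 6.51 ± 2.46 to 14.0 ± 3.99 CPM (1.05, SE 0.27, edgeR adjusted p = 0.0102), with dorsal library 2 at 10.8 CPM inside the ventral range. Id4, an inhibitor of bHLH factors in the BMP target family, fell from 271 ± 44.5 to 130 ± 19.3 CPM with no overlap (-1.07, SE 0.13, edgeR adjusted p = 1.14e-04). The other SMADs of the BMP branch were not called, at 0.24 (SE 0.16) for Smad1 and -0.18 (SE 0.14) for Smad5, and the shared Smad4 was at -0.027 (SE 0.14), with edgeR adjusted p of 0.275, 0.329 and 0.905. Among the other targets Id1 was at -0.88 (edgeR adjusted p = 0.101), Id2 at 0.49 (0.0464, short of the fold rule) and Id3 at 0.13 (0.765).

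The root mean square difference of gene-centred log2 CPM over the 10 libraries was used as the measure of likeness. The 5 genes nearest to Klhl14 were Gm20457, Prr15, Calb2, Igkc and Prkg2, at 0.449 to 0.579 log2 units. Prkg2, a cGMP-dependent protein kinase, was at 0.512 CPM dorsal and 5.61 CPM ventral, Prr15 at 0.409 and 2.93 CPM, and Gm20457, which shares 56.3% of its exonic bases with Mtmr10, at 0.140 and 1.36 CPM. The 5 nearest to Vwc2l were 9430002A10Rik, Gm14057, Gm12043, Hkdc1 and Helb, at 0.459 to 0.50 log2 units. Of these, Hkdc1, a hexokinase-like gene, was at 0.343 CPM dorsal and 2.56 CPM ventral. 9430002A10Rik, Gm14057 and Gm12043, like Igkc above, held at most 2 read pairs in any dorsal library. Their dorsal values rest largely on the small count added before the logarithm, so their likeness is that of genes at the floor. All the nearest genes but Calb2 passed the filter only through ventral libraries, so their ventral excess was partly set by the filter. The highest dorsal level was 0.390 CPM for Gm20457, 0.847 for Prr15, 1.10 for Prkg2, 0.409 for Hkdc1 and 0.541 for Helb. Vwc2l stood at position 87 from Klhl14 and Klhl14 at position 134 from Vwc2l among the 16806 tested genes, at a difference of 0.921. Both were chosen for a large ventral excess, so their nearness on this measure was partly set by that choice. With each gene scaled to its own standard deviation, 0 of 5 names were shared with the lists given here for either gene.

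Between 11138676 and 20594364 read pairs fell on genes in each library, and 3 read pairs were worth 0.142 to 0.282 CPM. Read pairs outside genes took 27.0 ± 5.09% dorsal and 14.4 ± 3.0% ventral (p = 0.00794 by a two-sided exact permutation test, where groups of 5 can reach no lower p), and mitochondrial mRNA 2968 ± 315 and 790 ± 307 CPM (the same exact p). The calls in the marker lists stand beside 9.85% ventral and 15.7% dorsal of all tested genes. Of 8 mossy cell markers 7 were tested, and 3 were called ventral and 1 dorsal. Their summed level was 471 to 536 CPM dorsal and 1139 to 1372 CPM ventral, with Calb2 alone averaging 65.2 and 616 CPM. Ventral subiculum markers, of which 1 of 7 was called ventral and 2 dorsal, summed to 68.5 to 88.0 CPM dorsal and 92.1 to 119 CPM ventral without overlap, and thalamic markers, 2 of 4 called ventral, to 28.9 to 33.7 and 38.3 to 59.9 CPM. Interneuron markers, 3 of 10 called ventral, summed to 3389 to 4501 and 4142 to 5384 CPM. Oligodendrocyte markers, 2 of 5 called dorsal, summed to 1985 to 2399 CPM dorsal and 716 to 1321 CPM ventral. Granule cell markers, 2 of 6 called dorsal, summed to 392 to 458 and 207 to 384 CPM. Astrocyte markers, 3 of 5 called dorsal and 1 ventral, summed to 171 to 230 and 61.8 to 185 CPM. Markers of striatal Drd2 neurons, 2 of 5 tested called dorsal, summed to 60.8 to 94.9 CPM dorsal and 36.7 to 57.1 CPM ventral without overlap, with Adora2a below the filter. Choroid plexus markers, 2 of 4 called dorsal, summed to 126 to 991 and 189 to 430 CPM. The sums of CA1, CA3, microglial and endothelial markers overlapped between groups. Of these, 2 of 5 CA1 markers were called ventral, and 2 of 5 CA3 and 1 of 5 microglial markers dorsal. No marker of these lists was at 0 in every library. The part of these differences in the levels of Klhl14, Vwc2l and the BMP pathway genes was not tested.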

How the data were processed

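Ribosome-bound RNA of 5 dorsal and 5 ventral pools was amplified from 500 pg with the Ovation RNAseq V2 kit, made into TruSeq v2 libraries and sequenced as 50 bp pairs. Per the labels and the submitters' processing notes, the authors aligned reads to GRCm38 with STAR 2.5.2b and deposited raw read counts per Ensembl gene from HTSeq 0.7.2. The annotation release and the strand setting are not given in the sources used here. Symbols, positions and exonic lengths came from GENCODE M21 (54809 of 54838 identifiers matched). Per-gene rows were fitted with edgeR 4.0.16 in R 4.3.3 (TMM, edgeR 4 quasi-likelihood, no block), after a filter of CPM above 1 in at least 2 libraries, and adjusted by Benjamini-Hochberg over 16806 genes. Rows naming no gene were left out of library sizes, and their share is in the report. CPM used TMM-scaled library sizes. A call needed adjusted p below 0.05 and a log2 ratio of mean CPM plus 1 beyond 0.58. The thresholds are those of the study's methods, and the scale of the fold was chosen here.

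Alternatives were other scalings, other filters, DESeq2 1.42.0, a likelihood-ratio test, a replicate block, GC and length offsets, the fold threshold on the edgeR value, each library left out and, added after the data were seen, the edgeR 3 dispersions. Named genes were Klhl14, Vwc2l, Vwc2 and Klhl29, called members of the lists, reference members of each list, neighbours within 1 Mb, Calb2 and the 5 genes nearest in pattern. 4930426D05Rik was added as the overlapping antisense gene after its values were seen. The genes and lists were chosen with earlier results of these data known. With 25 mice and pools of 5, dorsal and ventral libraries drew on the same mice, but which libraries share mice is not stated, and the test treats all 10 as independent. No 2 libraries were duplicates (lowest chi-square per degree of freedom 4.36). Intervals cover counting error only. The values of 1 gene among the other BTB-kelch proteins are not reported here.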

Additional observations from a re-analysis of the deposited data

Results flagged for a closer look

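Of 123 groups of 5 libraries checked over the named genes, 13 values stood apart from the other 4 of their group by Dixon's test, where chance gives about 5%. Among the family members of the 2 ventral genes, Vwc2 was at 11.8 CPM in dorsal library 2 with the others at 4.14 to 6.29 CPM, and Klhl29 at 52.1 CPM in dorsal library 3 with the others at 43.3 to 45.6 CPM. Klhl14 and Vwc2l had no such value. Dorsal library 2 was also high for Id1 (4.94 CPM, others 2.18 to 2.63), Nog (6.82 CPM, others 1.5 to 2.45) and Smad9 (10.8 CPM, others 4.80 to 5.86). Ventral library 2 was low for Acvr1 (6.52 CPM, others 12.9 to 15.1) and Klhl1 (2.02 CPM, others 5.29 to 6.42) and high for Trappc8 (68.9 CPM, others 39.4 to 46.4). Ventral library 1 was high for B4galt6 (229.7 CPM, others 203.6 to 210.4) and Bmpr2 (525 CPM, others 343 to 391). Ventral library 3 was low for Asxl3 (7.01 CPM, others 11.9 to 13.2) and high for Uba3 (218 CPM, others 133 to 154). Uba3 was also high in dorsal library 1, at 126.4 CPM with the others at 91.3 to 98.3 CPM.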

How the results depend on the processing

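Klhl14 and Vwc2l kept their direction in all 22 alternatives, with log2 fold changes of 3.12 to 3.23 and 2.99 to 3.22 outside the left-out libraries. Vwc2 (0.039 to 0.64 with each library left out) and Klhl29 (-0.10 to -0.024) were called in none. Counts over all genes ran from 1238 to 1998 ventral and 1776 to 3158 dorsal across settings, and from 1216 to 1815 and 2105 to 2670 with each library left out. Without an expression filter the median of all genes shifted to -0.11 on the log2 scale.

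With GC and length offsets, with or without the block, 0 kelch-like genes were called dorsal and 2 receptors were, and Rnf138 (0.56 and 0.47), Smad4 (0.019 and 0.019) and Trappc8 (0.14 and 0.14) turned positive. With upper-quartile factors 1 torsin partner was called dorsal. Of secreted modulators 1 was called ventral with no filter, DESeq2, the likelihood-ratio test and the block with or without offsets. The causes were not tested.

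Leaving out each library gave 2 to 4 kelch-like ventral calls, 0 to 5 ventral and 1 to 2 dorsal calls among other BTB-kelch genes, 1 to 2 ventral and 0 to 1 dorsal calls in the ligase list, 0 to 1 dorsal torsin calls, 0 to 1 ventral calls among modulators and among ligands, and 1 to 2 ventral calls among SMADs and targets. Log2 fold changes that crossed 0 were those of Id3 (-0.063 to 0.32), Smad4 (-0.12 to 0.037) and Tor1a (-0.16 to 0.082). Over the other named genes 83 of the refitted values lost a call and 19 gained one.

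The replicate block gave 1674 ventral and 2656 dorsal calls beside 1655 and 2636, of which 1533 and 2496 were shared. Libraries of 1 number did not deviate together (correlations of -0.020 to 0.043, and 1 of 5 dorsal libraries correlated best with its own number), so the numbers were not taken to pair the samples. Depth limits Klhl14 in dorsal libraries, where 6 to 29 read pairs carry the value, and 3 read pairs, the floor used here, were worth up to 0.282 CPM.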
